A study of Saccharomyces cerevisiae with 36 samples.

Results

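The comparison described here is how far the first 15 min of amino acid starvation changed each transcript in the eco1-W216G mutant and in WT budding yeast, and where those changes differed. The quantity compared is the interaction, which is the change in eco1-W216G (15 min minus 0 min) minus the change in WT (15 min minus 0 min), in log2 units. It uses 12 of the 36 arrays of the study, chosen by strain and time: 3 of eco1-W216G at 15 min, 3 of eco1-W216G at 0 min, 3 of WT at 15 min and 3 of WT at 0 min. The other arrays hold later times and a strain with the scc2-D730V mutation, and their levels enter below only where named. All 36 arrays share the estimate of spread behind the standard errors, intervals and calls.

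Both strains were haploid MATa cells of the W303a background, with the alleles ura3-1, leu2,3-112, his3-1, trp1-1, ade2-1 and can1-100 and a deletion of BAR1. The mutant also carried eco1-W216G in place of ECO1, beside a HYG marker. Cultures grew exponentially in YPD with added amino acids (CSM) for the 0 min sample, were pelleted and moved to minimal medium with no amino acids, and were sampled by filtration. The study used 3 independent cultures per strain, but the labels do not tie an array at 15 min to one at 0 min. Since both groups were moved between media, the 15 min change holds the response to the new medium and to the handling, which cannot be told apart.

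Eco1 is the acetyltransferase that modifies the Smc3 subunit of cohesin, the ring complex that holds sister chromatids together. In budding yeast, loss of amino acids rapidly silences the genes for making ribosomes, which are driven by the TORC1 and protein kinase A pathways. At the same time it induces the general stress genes, through the activators Msn2 and Msn4, and the amino acid synthesis genes, through Gcn4, a protein made when translation is limited. The comparison asks which arms of this programme were damped, which were kept whole and which were enlarged in the mutant.

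Values are log2 of the deposited array intensities, for 5763 probe sets, of which 5498 carry 1 gene name. The median of each array lay between 10.97 and 11.06, and pairs of arrays of a group correlated at 0.9828 to 0.9934. BAR1, deleted in both strains, read 4.48 to 4.86 on the 12 arrays. A group mean at or under 5.36 is called near the floor below. The MATa genes STE2, MFA1, MFA2 and STE6 read 11.54 to 14.55. Of the genes of the other mating type, MF(ALPHA)1, MF(ALPHA)2 and STE3 read 5.01 to 8.37, whereas SAG1 read 10.66 to 11.75. ECO1 itself read 6.19, 6.36 and 6.13 in eco1-W216G at 15 min and 5.26, 5.05 and 5.15 in eco1-W216G at 0 min, against 8.84, 8.44 and 8.38 in WT at 15 min and 8.21, 8.87 and 8.23 in WT at 0 min. All 6 mutant arrays lay below all 6 WT arrays, by 2.33 ± 0.24 at 15 min and by 3.28 ± 0.24 at 0 min.

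Most of the WT response was smaller in the mutant. In WT, 1191 probe sets rose and 1100 fell at least 2-fold at adjusted p under 0.05 (20.7% and 19.1% of those tested), whereas in eco1-W216G 510 rose and 484 fell by the same rule (8.85% and 8.4%). The interaction was called, at adjusted p under 0.05 and a difference of at least 1.4-fold, for 974 probe sets with a higher change in eco1-W216G (16.9%) and for 998 with a lower one (17.3%), or 34.2% of all. Over all probe sets the median interaction was -0.03 and its median standard error (SE) was 0.25.

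Of the 1100 probe sets repressed in WT, 817 (74.3%) were damped, meaning that the interaction was called against the WT change. Another 2 changed in opposite directions, 13 (1.18%) were kept whole, 268 (24.4%) were unresolved and 0 were enlarged. Of the 1191 induced in WT, 793 (66.6%) were damped, 3 (0.252%) were enlarged, 78 (6.55%) were kept whole and 317 (26.6%) were unresolved. Kept whole means that the interaction was not called and that its 95% confidence interval lay within 0.5 of the size of the WT change on either side of 0. The unresolved responses met neither rule, and they are not shown to be equal in the strains. A further 15 probe sets responded only in the mutant, 11 of them upward, and 342 called interactions belonged to none of these classes.

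The damped repressions retained a median of 40.7% of the WT change on the log2 scale, and the damped inductions 39% of it. As a point estimate, the mutant change ran against the WT change in 18 damped repressions and 24 damped inductions. A mutant change called against the WT change was classed apart, so the damped classes hold none by definition. Among the damped repressions, 657 of 817 still fell in eco1-W216G past the 1.4-fold rule, and 545 of the 793 damped inductions still rose by it. In the others no change was called in the mutant. Across all probe sets the changes of the strains had a Pearson correlation of 0.9 and a Spearman correlation of 0.9. This is a correlation across genes that share arrays, given as a description.

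A damped call was made for a larger share of the larger WT responses, for which a given proportional loss reaches the 1.4-fold limit more readily. Among WT repressions of 2-fold to 4-fold 58.3% of 609 were damped, and among those of 16-fold or more 96.5% of 173, whose median change was -1.88 in eco1-W216G and -4.88 in WT. Among WT inductions of 2-fold to 4-fold 55.6% of 698 were damped, and among those of 16-fold or more 89.2% of 93, with medians of 2.28 in eco1-W216G and 4.84 in WT. The share of the WT change that was retained varied less. Its median was 45.7% for inductions of 2-fold to 4-fold and 47.2% for those of 16-fold or more, and it was 49.6% and 37.5% for the repressions of these sizes. Because responses chosen on WT arrays tend to look smaller elsewhere, they were also chosen on the scc2-D730V arrays, which the interaction does not use. By that choice 749 of 1009 repressions (74.2%) and 745 of 1143 inductions (65.2%) were damped. Their median changes were -0.95 in eco1-W216G and -1.97 in WT for the repressions, and 0.87 in eco1-W216G and 1.79 in WT for the inductions.

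**Figure D1:**
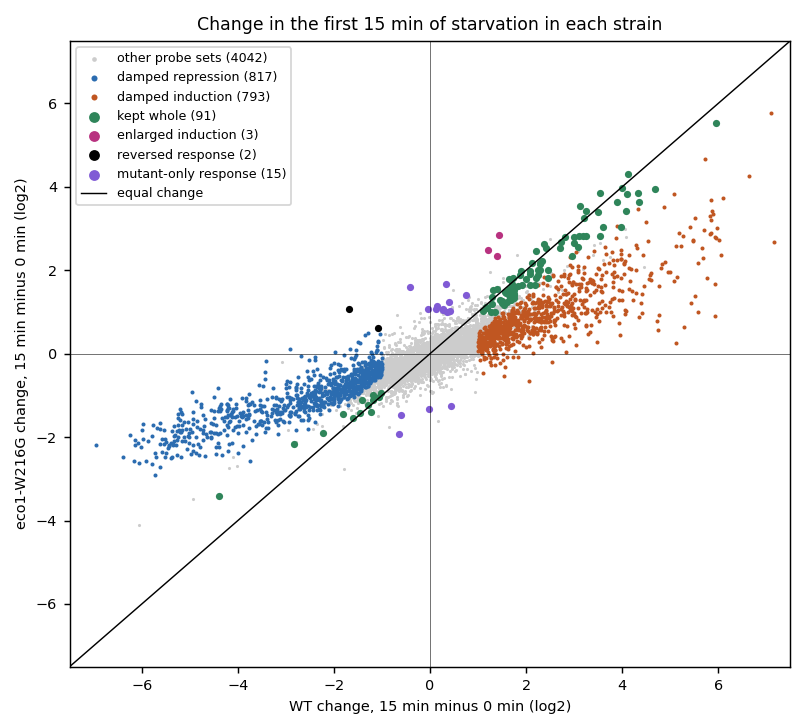
Change of each probe set from 0 to 15 min, with the change in eco1-W216G on the vertical axis and that in WT on the horizontal axis, both in log2 units and each the difference of 2 means of 3 arrays. Points on the diagonal changed equally; the 817 damped repressions lie above it on the left and the 793 damped inductions below it on the right, while the 91 responses kept whole lie along it.

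The damped repressions came mainly with a strain difference at 15 min, and the damped inductions about equally with one at 15 min and one at 0 min. An interaction is the strain difference at 15 min minus the strain difference at 0 min, so each was split by which of these was called. Of the 817 damped repressions, 586 had a strain difference called only at 15 min, 73 only at 0 min, 52 at both and 106 at neither. The mutant was higher at 15 min in 638 of them, and the median strain difference was 1.02 at 15 min and -0.35 at 0 min. Of the 793 damped inductions, 294 had a difference called only at 15 min, 292 only at 0 min, 148 at both and 59 at neither. The mutant was already higher at 0 min in 438 and still lower at 15 min in 423, with medians of -0.57 at 15 min and 0.65 at 0 min. Over all probe sets, 11.5% were called higher and 7.74% lower in eco1-W216G at 0 min, and 16.1% higher and 17.6% lower at 15 min.

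**Figure D2:**
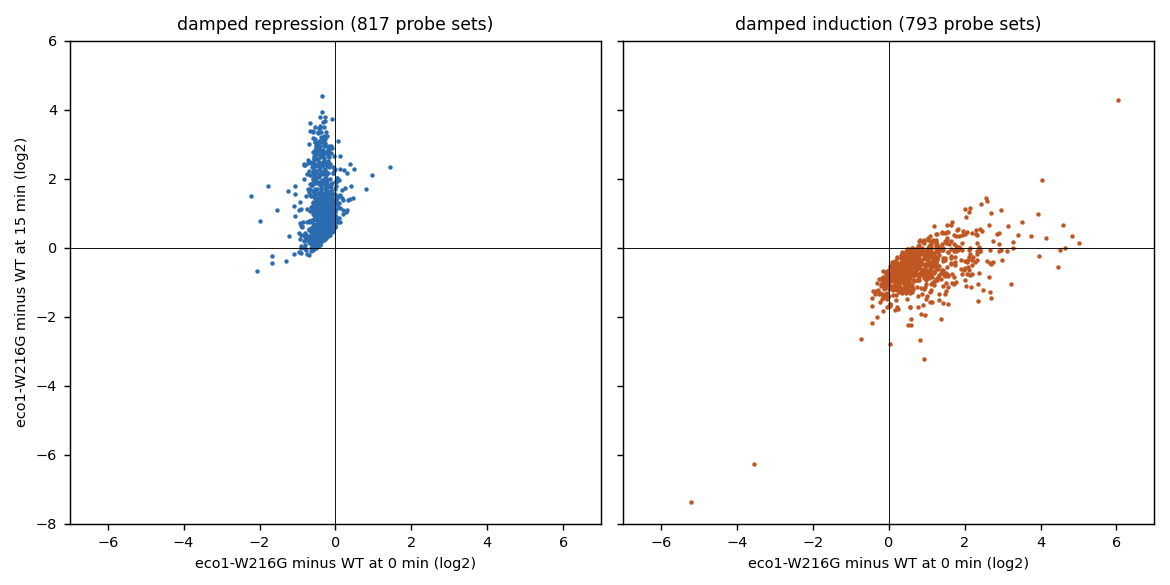
Strain difference (eco1-W216G minus WT, log2) at 15 min on the vertical axis against that at 0 min on the horizontal axis, for the 817 damped repressions and the 793 damped inductions; each point is 1 probe set. The damped repressions stand in a column near 0 on the horizontal axis and reach high values at 15 min, whereas the damped inductions spread to the right, with many near 0 at 15 min.

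The genes for assembling ribosomes were the largest group of damped repressions. All 74 measured genes for assembly of the 60S subunit had a higher change in eco1-W216G, and so had 66 of 70 genes of the small subunit processome and 40S assembly, against 16.9% of all probe sets. The median change of the 60S list was -1.74 in eco1-W216G and -4.89 in WT, and that of the small subunit list was -1.67 in eco1-W216G and -4.5 in WT. The 4 of the small subunit list that were not called were KRR1, RRP7, TSR3 and RIO1. The strains began at similar levels: the median strain difference of the 60S list was -0.41 at 0 min and 2.56 at 15 min, and all 74 differences were called at 15 min alone.

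UTP13, a subunit of the small subunit processome, had the largest damping of a repression. It read 9.79, 9.28 and 10.10 in eco1-W216G at 15 min and 11.93, 12.14 and 11.68 in eco1-W216G at 0 min, against 4.83, 5.37 and 5.75 in WT at 15 min and 12.38, 12.23 and 12.23 in WT at 0 min. The starting values were near each other, and the 15 min values of the strains were far apart, with WT near the floor, so its fall is a lower limit. Its interaction was 4.77 ± 0.84 (SE; adjusted p = 7.59e-05).

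NOC2, which carries pre-60S particles out of the nucleolus, read 9.88, 9.23 and 10.16 in eco1-W216G at 15 min and 11.74, 11.91 and 11.49 at 0 min, against 5.93, 6.12 and 6.39 in WT at 15 min and 12.28, 12.48 and 12.43 at 0 min. In both strains every 15 min array was below every 0 min array, but the WT fall was 6.25 and the mutant fall 1.96, an interaction of 4.29 ± 0.70 (adjusted p = 3.23e-05). RPF2, which brings the 5S ribonucleoprotein into the pre-60S particle, fell by 2.07 in eco1-W216G and by 6.13 in WT. Its partner RRS1 fell by 2.13 in eco1-W216G and by 6.08 in WT. CIC1, BFR2, UTP21, UTP18 and UTP8, further assembly factors, had interactions of 3.95 to 4.28. JJJ3, a J protein of the diphthamide pathway, had an interaction of 4.04 ± 0.84, again with WT near the floor at 15 min. In all, 15 of the 817 damped repressions had such a WT level at 15 min.

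Damped repressions were also frequent among the RNA polymerase and RNA modification genes. Of 17 genes of RNA polymerase I and its factors, 14 had a higher change in eco1-W216G, with a median change of -1.23 in eco1-W216G and -3.24 in WT. RPA12, a small subunit of the enzyme that transcribes ribosomal DNA, read 11.37, 10.55 and 11.02 in eco1-W216G at 15 min and 12.70, 12.91 and 12.45 at 0 min, against 7.58, 7.82 and 7.99 in WT at 15 min and 13.13, 13.22 and 12.75 at 0 min. The lowest mutant reading at 15 min stood well above the highest WT reading (interaction 3.53 ± 0.55, adjusted p = 2.03e-05). RPA34, another subunit, had an interaction of 3.25 ± 0.64.

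For RNA polymerase III, which makes transfer RNA and 5S RNA, 10 of 19 were higher and 2 were lower (17.3% of all probe sets were lower). RPC53 fell by 1.54 in eco1-W216G and by 4.49 in WT. The lower members were the transcription factor subunit TFC7 and MAF1, the repressor of this polymerase. MAF1 had a change of 0.03 in eco1-W216G and 0.65 in WT, an interaction of -0.62 that was no longer called without any one of 5 arrays (-0.52 to -0.58). TFC7, at -0.64, was no longer called at -0.57 without WT 0 min replicate 3 or at -0.51 without WT 15 min replicate 1. The small nucleolar ribonucleoprotein list had 14 of 19 higher and 0 lower. The transfer RNA modification list had 31 of 39 higher and 0 lower, among them the methyltransferase TRM5, which fell by 0.42 in eco1-W216G and by 2.56 in WT.

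Ribosomal proteins had smaller measured WT falls and smaller interactions than the ribosome assembly genes. Of 75 large subunit proteins 36 had a higher change and 0 a lower one, and of 53 small subunit proteins 24 and 0. The higher shares were 48% and 45.3%, against 16.9% of all probe sets. The median change was -0.71 in eco1-W216G and -1.46 in WT for the large subunit, and -0.81 in eco1-W216G and -1.4 in WT for the small subunit. Of those that responded in WT, 36 of 56 large subunit genes (64.3%) and 24 of 40 small subunit genes (60%) were damped, against 74.3% of all WT repressions and 58.3% of those of 2-fold to 4-fold. RPL38, a 60S protein, read 13.11, 12.82 and 13.03 in eco1-W216G at 15 min and 14.13, 14.03 and 14.05 at 0 min, against 11.91, 11.47 and 11.62 in WT at 15 min and 14.30, 14.22 and 14.38 at 0 min. Its 15 min groups did not overlap (interaction 1.55 ± 0.26, adjusted p = 5.8e-05). All its 0 min readings were above 14, near the top of the scale, where differences may be compressed, so its falls may be understated. Whether such readings contributed to the smaller falls of these lists was not tested. RPS9B, a 40S protein, had an interaction of 1.89 ± 0.25. It has a near-identical copy, RPS9A, whose probe set gave 2.77 ± 0.40, and probe sets of such pairs may share signal. The mitochondrial ribosomal protein list had 0 of 73 higher and 6 lower (8.22%, against 17.3% of all probe sets), and 3 lower without WT 0 min replicate 3.

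Among 32 translation factors 18 were higher and 0 lower, with NIP1, a subunit of initiation factor eIF3, falling by 1.15 in eco1-W216G and by 2.74 in WT. Aminoacyl-tRNA synthetases had 12 of 22 higher. The higher shares were 56.2% for the translation factors and 54.5% for the synthetases, against 16.9% of all probe sets. The list of GCN4, the Gcn2 pathway and eIF2B, the factor that recharges eIF2 and is limited in starvation, had 10 of 15 higher and 0 lower. GCD6, the catalytic subunit of eIF2B, read 11.27, 11.04 and 11.35 in eco1-W216G at 15 min and 12.06, 11.99 and 11.82 at 0 min, against 9.57, 9.49 and 9.67 in WT at 15 min and 12.16, 12.25 and 12.16 at 0 min. The mutant fell by 0.74 and WT by 2.61, with no overlap at 15 min (interaction 1.88 ± 0.28, adjusted p = 1.21e-05). GCN4 mRNA, known to be controlled mainly in translation, read 14.65, 14.61 and 14.63 in eco1-W216G at 15 min and 14.60, 14.56 and 14.60 at 0 min, against 14.50, 14.43 and 14.54 in WT at 15 min and 14.57, 14.58 and 14.64 at 0 min. Its interaction of 0.15 was not called (95% interval -0.05 to 0.35, adjusted p = 0.255), and these readings are near the top of the scale.

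Of the 16 regulators of ribosome genes, 4 were called higher (25%, against 16.9% of all probe sets) and 0 lower. IFH1, a coactivator of ribosomal protein genes, read 10.62, 10.42 and 11.27 in eco1-W216G at 15 min and 10.87, 10.82 and 11.06 at 0 min, against 8.54, 8.53 and 8.74 in WT at 15 min and 11.05, 10.95 and 11.37 at 0 min. The mutant groups overlapped, and the WT groups were clearly apart (interaction 2.37 ± 0.37, adjusted p = 1.78e-05). TOD6, a repressor of ribosome assembly genes, was itself a damped repression, at -1.80 in eco1-W216G and -5.08 in WT.

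Repressed genes of other functions were also damped. The G1 cyclin CLN2, which drives entry into the cell cycle, read 11.55, 11.62 and 11.45 in eco1-W216G at 15 min and 11.68, 11.96 and 12.06 at 0 min, against 9.42, 9.76 and 10.16 in WT at 15 min and 11.85, 12.31 and 12.28 at 0 min. Only WT showed a wide gap between times (interaction 2.00 ± 0.35, adjusted p = 7.86e-05). Of the 18 genes of the G1 list 8 were higher and 0 lower (5 higher without WT 0 min replicate 2). Of 47 DNA replication genes 14 were higher and 0 lower, including RNR1, the large subunit of ribonucleotide reductase, at 1.95 ± 0.24. The higher shares were 44.4% for the G1 list and 29.8% for DNA replication, against 16.9% of all probe sets. In the cohesin list 8 of 15 (53.3%) were higher and 0 lower, with 4 higher without WT 0 min replicate 2 and 5 without eco1-W216G 15 min replicate 3. That list contains ECO1, and SMC3, the target of Eco1, fell by 0.92 in eco1-W216G and by 2.03 in WT. The low-affinity glucose transporters HXT1 and HXT3 had interactions of 2.27 ± 0.50 and 2.17 ± 0.35.

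**Figure D3:**
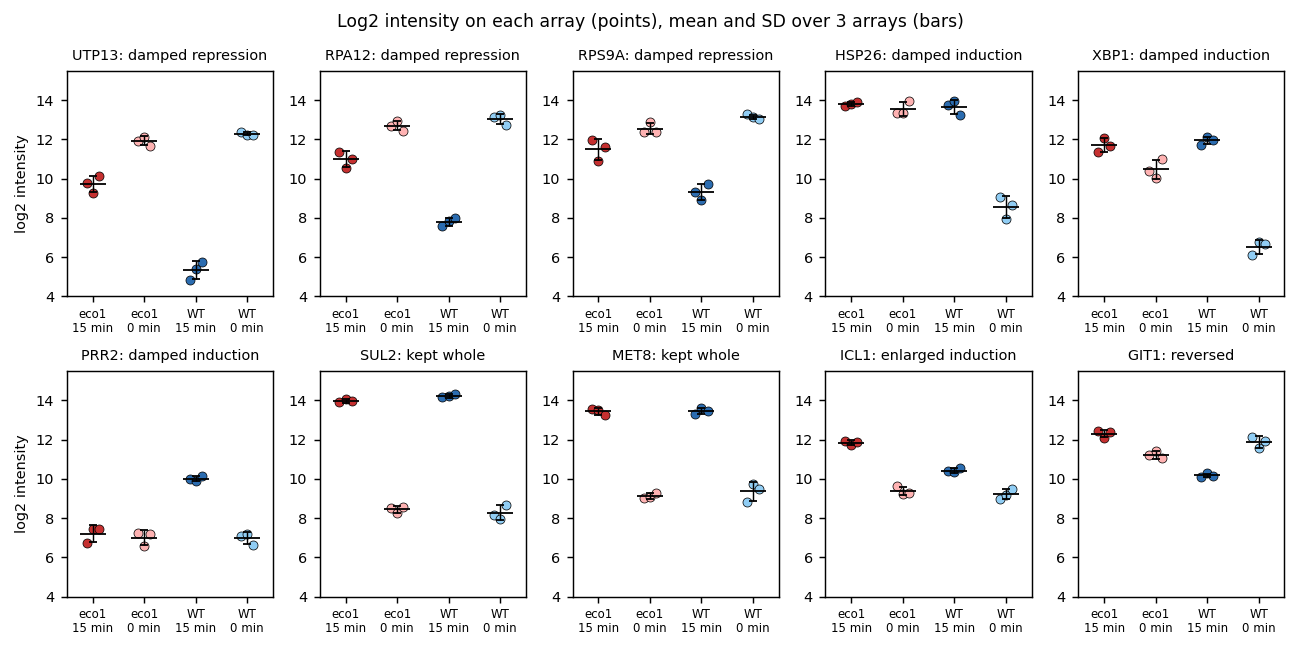
Log2 intensity of 10 genes on each of the 12 arrays (points), with the mean and SD of 3 arrays (bars), in the order eco1-W216G 15 min, eco1-W216G 0 min, WT 15 min, WT 0 min. UTP13, RPA12 and RPS9A start alike and separate at 15 min; HSP26 and XBP1 start higher in the mutant and end alike; PRR2 starts alike and rises only in WT; SUL2 and MET8 rise by similar amounts; ICL1 rises more in the mutant; GIT1 moves in opposite directions.

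The general stress genes were damped in another way: the mutant already held them high before starvation. Of 50 measured general stress genes, 45 had a lower change in eco1-W216G and 0 a higher one, against 17.3% lower over all probe sets. The median change was 1.09 in eco1-W216G and 3.42 in WT. The median strain difference was 1.54 at 0 min, called higher for 45 genes, and -0.31 at 15 min, called lower for 10. For 34 of the 45 damped members only the 0 min difference was called. The other 5 were UGP1, which was kept whole, PAI3, which was unresolved, and SOD1, TRX2 and HOR7, which were no WT responses. UGP1 stayed kept whole in only 3 of the 12 fits that left out 1 array.

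HSP26, a small heat shock chaperone, read 13.72, 13.79 and 13.91 in eco1-W216G at 15 min and 13.35, 13.33 and 13.98 at 0 min, against 13.76, 13.95 and 13.26 in WT at 15 min and 9.04, 7.92 and 8.63 at 0 min. WT at 0 min stood apart, and the other groups overlapped. Its interaction was -4.88 ± 0.53 (adjusted p = 1.47e-07), made of a strain difference of 5.02 at 0 min and 0.15 at 15 min. HSP12, a membrane-protecting stress protein, read 15.13, 15.14 and 15.12 in eco1-W216G at 15 min and 14.49, 14.25 and 14.73 at 0 min, against 15.17, 15.12 and 15.12 in WT at 15 min and 10.04, 9.86 and 9.69 at 0 min. The 15 min readings fell in a very narrow band near the top of the scale (interaction -4.64 ± 0.48). Of the 793 damped inductions, 42 had a 15 min mean of at least 14 in both strains, and a difference above that level may be compressed. These 42 included 39 that were called higher in the mutant at 0 min, and 15 of the 50 general stress genes were at that level in both strains at 15 min.

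XBP1, a repressor of cyclin genes induced by stress, did not approach that level. It read 11.35, 12.08 and 11.65 in eco1-W216G at 15 min and 10.37, 10.05 and 10.98 at 0 min, against 11.73, 12.13 and 11.96 in WT at 15 min and 6.10, 6.75 and 6.68 at 0 min. Mutant and WT overlapped at 15 min but were far apart at 0 min (interaction -4.20 ± 0.61, adjusted p = 8.78e-06). TMA10, a ribosome-associated protein of stressed cells, had the largest damping of an induction, at -5.03 ± 0.69. DDR2, a stress protein of unknown role, and SPG4, which is needed in stationary phase, followed at -4.57 ± 0.40 and -4.49 ± 0.39.

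Other groups began high in the mutant in the same way. Of 38 genes of the tricarboxylic acid and glyoxylate cycles and acetyl-CoA metabolism, 19 were lower and 2 higher, and 15 of its 17 damped inductions had only the 0 min difference called. CIT1, the mitochondrial citrate synthase, read 14, 14.26 and 14.01 in eco1-W216G at 15 min and 13.60, 13.33 and 13.88 at 0 min, against 14.41, 14.43 and 14.40 in WT at 15 min and 12.18, 12.40 and 12.39 at 0 min. The strains overlapped at no time point, with the mutant higher at 0 min and lower at 15 min by 0.32, which is under the 1.4-fold limit (interaction -1.60 ± 0.16, adjusted p = 6.37e-08). In the small heat shock list 5 of 8 were lower, all by a 0 min difference alone.

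PIR3, a cell wall protein, had the smallest p of all list members, with an interaction of -3.94 ± 0.19 (adjusted p = 1.08e-14). It read 14.79, 14.81 and 14.56 in eco1-W216G at 15 min and 13.92, 13.75 and 14.12 at 0 min, against 14.12, 14.19 and 13.93 in WT at 15 min and 9.47, 9.37 and 9.21 at 0 min. The mutant before starvation had thus reached the WT level of 15 min. CRC1, which carries acylcarnitine into mitochondria, had an interaction of -3.18 ± 0.24. SNO1, in the vitamin B6 pathway, rose by 2.69 in eco1-W216G and by 5.47 in WT, and its partner SNZ1 rose by 1.85 in eco1-W216G and by 2.73 in WT. Both were higher in the mutant at both times.

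A different set of inductions started near the WT level of 0 min and stayed below the WT level of 15 min. PRR2, a protein kinase linked to pheromone signalling, read 6.71, 7.46 and 7.45 in eco1-W216G at 15 min and 7.23, 6.57 and 7.21 at 0 min, against 9.99, 9.89 and 10.15 in WT at 15 min and 7.08, 7.19 and 6.62 at 0 min. Only WT at 15 min stood apart (interaction -2.84 ± 0.42, adjusted p = 9.91e-06). YMR206W, a gene of unknown function, also ended below WT, although it began above the WT level of 0 min in the mutant. It rose by 1.38 in eco1-W216G and by 5.52 in WT, with a strain difference of -3.22 at 15 min. NTH2, a trehalase, rose by 0.64 in eco1-W216G and by 2.31 in WT. MRS4, a mitochondrial iron carrier, read 10.61, 10.93 and 10.46 in eco1-W216G at 15 min and 10.30, 10.31 and 10.10 at 0 min, against 12.42, 12.09 and 11.89 in WT at 15 min and 10.44, 10.28 and 10.41 at 0 min. Its starting values overlapped, and its 15 min values did not (interaction -1.32 ± 0.27, adjusted p = 0.000371).

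Autophagy genes, which deliver cell contents to the vacuole for reuse, were often of this kind. Of 29, 17 had a lower change and 0 a higher one, and of the 16 damped inductions 8 had only the 15 min difference called, 4 only the 0 min difference and 4 both. ATG9, the membrane protein of autophagosome precursors, rose by 1.24 in eco1-W216G and by 2.44 in WT, and ATG7, an activating enzyme, by 1.06 in eco1-W216G and by 2.66 in WT. Peroxisome and fatty acid oxidation genes had 17 of 39 lower (43.6%, against 17.3% of all probe sets) and 0 higher. Of their 14 damped inductions, 9 had only the 15 min difference called. Trehalose and glycogen genes were split: 21 of 24 were lower, of which 8 had the 0 min difference alone, 7 the 15 min difference alone and 6 both. GAC1, a glycogen-targeting subunit of protein phosphatase 1, had both, with 2.70 at 0 min and -1.47 at 15 min.

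The iron uptake genes FIT2 and FIT3, which encode cell wall proteins that retain siderophores, were low in the mutant throughout. FIT2 read 5.01, 5.32 and 4.83 in eco1-W216G at 15 min and 4.88, 5.08 and 4.71 at 0 min, against 12.45, 12.45 and 12.37 in WT at 15 min and 10.52, 10.47 and 9.34 at 0 min. Every mutant array was near the floor, so the absence of a rise there has no measured size. FIT3 read 6.88, 7.79 and 6.83 in eco1-W216G at 15 min and 7.78, 8.08 and 7.64 at 0 min, against 13.41, 13.44 and 13.47 in WT at 15 min and 11.11, 11.74 and 11.30 at 0 min. It was lower in the mutant at both times and above the floor (interaction -2.72 ± 0.45, adjusted p = 3.79e-05). Of the 29 genes in the iron list 6 were lower (20.7%, against 17.3% of all probe sets) and 2 higher (6.9%, against 16.9%). The lower count was 4 to 9 with 1 array left out, and 9 without WT 0 min replicate 1.

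Sulfate assimilation and methionine synthesis held more of the responses kept whole than any other list, although many of these genes read near the top of the scale. Of 30 measured genes 23 were induced in WT, and 14 of these were kept whole, out of 91 kept responses in all. At 15 min 7 of the 14 had means of at least 14 in both strains, as had 19 of the 30, where differences may be compressed, and the other 7 were below it in at least one strain. The count also rested on 1 array. Without WT 0 min replicate 3, 9 members were kept whole and 13 had a lower change, whereas leaving out any other array left 14 to 16 kept whole and 4 to 6 lower. The median change of the list was 2.71 in eco1-W216G and 2.97 in WT, and the responders retained a median of 83.4%. In the list 6 members were lower (20%, against 17.3% of all probe sets) and 1 was higher (3.33%, against 16.9%). SUL2, a sulfate permease, read 13.90, 14.09 and 13.97 in eco1-W216G at 15 min and 8.52, 8.25 and 8.59 at 0 min, against 14.16, 14.20 and 14.32 in WT at 15 min and 8.16, 7.97 and 8.68 at 0 min. At 0 min the strains overlapped, and at 15 min the mutant was a little lower. SUL2 was the largest induction kept whole, with an interaction of -0.42 ± 0.22 (95% interval -0.88 to 0.04, adjusted p = 0.151). Without WT 0 min replicate 3 this became -0.62 and was called.

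MET8, which completes the siroheme cofactor of sulfite reductase, read 13.56, 13.53 and 13.23 in eco1-W216G at 15 min and 9.03, 9.05 and 9.30 at 0 min, against 13.32, 13.63 and 13.46 in WT at 15 min and 8.83, 9.73 and 9.50 at 0 min. The strains overlapped at both times, with an interaction of 0.20 ± 0.40 (95% interval -0.62 to 1.02). MET32, an activator of the pathway, rose by 3.94 in eco1-W216G and by 4.68 in WT. MET2, homoserine acetyltransferase, rose by 3.63 in eco1-W216G and by 4.35 in WT, and was called at -1.11 without WT 0 min replicate 3. The other members kept whole were MET1, MET3, MET5, MET10, MET13, MET14, MET16, MET22, STR2 and SAM3. Of these MET3, MET10 and MET14 were called without WT 0 min replicate 3, at -1.55, -0.89 and -0.85.

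The 6 damped members of that list, SUL1, MET17, MET28, STR3, MUP3 and SEO1, all differed at 0 min alone. SEO1, a permease-like protein, read 14.67, 14.73 and 14.58 in eco1-W216G at 15 min and 11.43, 11.02 and 11.52 at 0 min, against 14.40, 14.45 and 14.53 in WT at 15 min and 7.98, 8.53 and 9.18 at 0 min. The mutant was higher at 0 min, and at 15 min both strains were near the top of the scale (interaction -2.56 ± 0.30, adjusted p = 4.54e-07). STR3, a cystathionine beta-lyase, had -2.45 ± 0.36. MET17, at -0.57, and MET28, at -1.07, were no longer called without WT 0 min replicate 1 (-0.39 and -0.70), nor was MET17 without WT 0 min replicate 2 (-0.47). Over all alternative settings, thresholds included, the call was lost in 7 for MET17 and in 4 for MET28.

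Inductions of amino acid synthesis outside the sulfur pathway were partly kept. ARG3, the ornithine carbamoyltransferase of arginine synthesis, rose by 3.83 in eco1-W216G and by 4.10 in WT. ARG4 and ORT1 were also kept whole, whereas ARG1 and ARG7 were damped from a higher start. Among the 12 fits that left out 1 array, ARG4 stayed kept whole in only 6 and ORT1 in all 12. The damping of ARG1, -1.29 ± 0.45, was no longer called at -1.11 without WT 0 min replicate 3, at -1.20 without WT 0 min replicate 2 or at -1.17 without eco1-W216G 0 min replicate 2. HIS4 and HIS3 of histidine synthesis were kept whole, although HIS3 is a mutated allele in these strains. HIS4 sat at the edge of that class, at -0.65 with an adjusted p of 0.0662, and was called at -0.79 without WT 0 min replicate 1 and in 4 settings that used other arrays, weights or a block. In the threonine, serine and glycine list HOM3, SER1, SER3, SER33 and SHM2 were kept whole by the rule. SHM2, serine hydroxymethyltransferase, passed the adjusted p (0.0439) with an interaction of -0.40 (95% interval -0.72 to -0.08) and only missed the 1.4-fold limit. It was called at -0.51 without WT 0 min replicate 2 or eco1-W216G 0 min replicate 1, and at -0.79 at 35 min and -0.84 at 55 min. SER3, at -0.55, was called at -0.74 without WT 0 min replicate 2 and in 4 of the other settings. Among the 12 fits that left out 1 array, HIS4 stayed kept whole in only 2 and SER3 in only 4. AGP3, an amino acid permease, rose by 3.85 in eco1-W216G and by 4.34 in WT.

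Few repressions were kept whole. TOM5, a small subunit of the mitochondrial import pore, read 11.24, 10.93 and 11.03 in eco1-W216G at 15 min and 12.65, 12.65 and 12.56 at 0 min, against 11.35, 11.25 and 11.46 in WT at 15 min and 13.11, 12.92 and 12.86 at 0 min. Both strains fell by nearly the same amount (interaction 0.06 ± 0.21, 95% interval -0.38 to 0.50). MRPL20, of the mitochondrial ribosome, fell by 1.43 in eco1-W216G and by 1.45 in WT. It stayed kept whole in only 4 of the 12 fits that left out 1 array. PHO3, an acid phosphatase, fell by 3.42 in eco1-W216G and by 4.40 in WT, an interaction of 0.98 ± 0.40 at an adjusted p of 0.0545. It was called at 1.19 without WT 0 min replicate 3, at 1.11 without eco1-W216G 0 min replicate 2 and at 1.18 without eco1-W216G 15 min replicate 2. It was also called in 6 settings that left these arrays in, among them array weights, centring of each array and culture as a block.

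**Figure D4:**
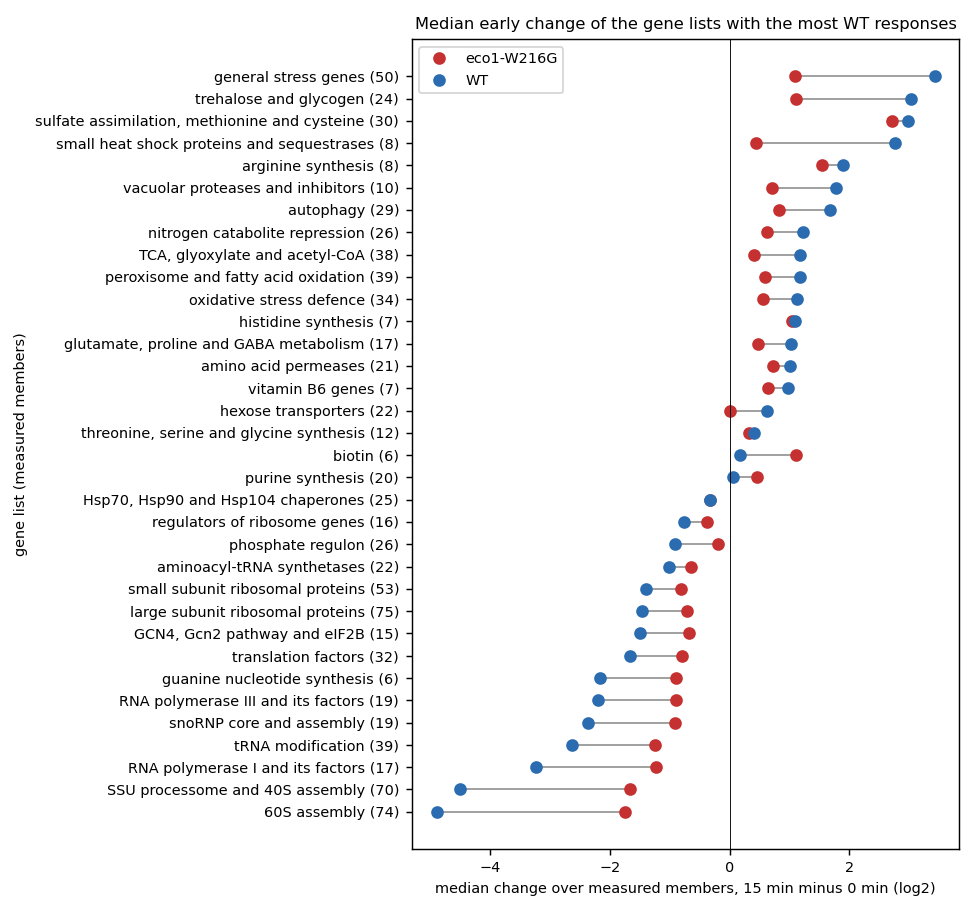
Median change from 0 to 15 min (log2) over the measured members of each gene list in which at least as many members responded in WT as did not, with eco1-W216G in red and WT in blue; the number of members is in brackets, and the line joins the strains. The ribosome assembly lists at the bottom and the general stress and small heat shock lists near the top show the widest gaps, and the chaperone, histidine and threonine, serine and glycine lists the narrowest.

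The 3 enlarged inductions were ICL1, SFC1 and YJR154W. ICL1, isocitrate lyase of the glyoxylate cycle, read 11.95, 11.73 and 11.88 in eco1-W216G at 15 min and 9.62, 9.24 and 9.25 at 0 min, against 10.40, 10.33 and 10.54 in WT at 15 min and 8.99, 9.19 and 9.48 at 0 min. The strains overlapped at 0 min and not at 15 min, and ICL1 rose by 2.48 in eco1-W216G and by 1.20 in WT (interaction 1.27 ± 0.24, adjusted p = 0.000146). SFC1, the mitochondrial succinate-fumarate carrier that supplies this cycle's product to the mitochondrion, rose by 2.35 in eco1-W216G and by 1.39 in WT (0.96 ± 0.36, adjusted p = 0.039), with overlapping array-pair changes. Its call was lost in 7 of the 12 fits that left out 1 array (0.74 to 0.98), whereas ICL1 and YJR154W were called in all 12. YJR154W, of unknown function, read 9.04, 7.96 and 8.54 in eco1-W216G at 15 min and 5.59, 5.67 and 5.75 at 0 min, against 6.63, 6.90 and 6.93 in WT at 15 min and 5.52, 5.23 and 5.43 at 0 min. Its 15 min groups did not overlap (1.41 ± 0.34, adjusted p = 0.00168). MLS1, malate synthase, the other enzyme particular to the glyoxylate cycle, was not enlarged but damped, at -1.12. It was no longer called without eco1-W216G 15 min replicate 3 (-0.93) or WT 0 min replicate 1 (-0.85). Over all alternative settings, thresholds included, its call was lost in 4.

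The 2 responses in opposite directions were GIT1 and YMC2. GIT1, the plasma membrane permease for glycerophosphoinositol, read 12.43, 12.09 and 12.40 in eco1-W216G at 15 min and 11.22, 11.44 and 11.04 at 0 min, against 10.11, 10.28 and 10.16 in WT at 15 min and 12.12, 11.55 and 11.94 at 0 min. At both times in either strain the groups were apart, and GIT1 rose by 1.07 in eco1-W216G and fell by 1.69 in WT (interaction 2.76 ± 0.35, adjusted p = 1.36e-06). YMC2, a mitochondrial carrier, read 12.69, 12.04 and 12.51 in eco1-W216G at 15 min and 11.87, 12 and 11.53 at 0 min, against 11.24, 10.88 and 11.62 in WT at 15 min and 12.32, 12.35 and 12.34 at 0 min. The mutant arrays of 15 min were above those of 0 min and the WT arrays of 15 min below those of 0 min, an interaction of 1.70 ± 0.36 (adjusted p = 0.000598). That interaction was called without any one of the 12 arrays, but the rise in the mutant passed the test in only 3 of these fits.

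GIT1 is one of the phosphate-regulated genes, of which 14 of 26 were higher and 2 lower. These are 53.8% and 7.69%, against 16.9% and 17.3% of all probe sets. PHM6, induced when phosphate is scarce, read 8.63, 7.79 and 8.11 in eco1-W216G at 15 min and 9.48, 9.11 and 9.35 at 0 min, against 6.31, 6.55 and 7.13 in WT at 15 min and 11.99, 11.21 and 11.40 at 0 min. The mutant began lower than WT and ended higher (interaction 3.73 ± 0.42, adjusted p = 2.96e-07). PHO84, the high-affinity phosphate transporter, had changes of 0.12 in eco1-W216G and -2.92 in WT, and PHO11, an acid phosphatase, -0.17 in eco1-W216G and -3.42 in WT. VTC3, of the polyphosphate synthase complex, had an interaction of 1.54 ± 0.17.

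Of the 11 genes that rose only in the mutant, BIO5 had the largest interaction. This permease for a biotin precursor read 10.34, 9.60 and 9.87 in eco1-W216G at 15 min and 8.58, 8.19 and 8.26 at 0 min, against 7.62, 7.64 and 7.74 in WT at 15 min and 7.84, 8.37 and 8.06 at 0 min. Mutant and WT overlapped at 0 min and were apart at 15 min (interaction 2.02 ± 0.45, adjusted p = 0.000793). ARG8, acetylornithine aminotransferase of arginine synthesis, rose by 1.67 in eco1-W216G with 0.33 in WT. STB4, a putative transcription factor, rose by 1.15 with 0.14 in WT, and PHO4, the activator of the phosphate regulon, by 1.08 with -0.04 in WT from a lower start. PHO4 was no longer called without WT 15 min replicate 2 (0.94), eco1-W216G 15 min replicate 1 (1.00) or 3 (1.05), or eco1-W216G 0 min replicate 1 (1.02). The others that rose were HIS7, LEU2, PCL9, SDT1, SAM2, SKP2 and ECO1, the last near the floor at 0 min, while FRE7, PHM8, AIM33 and YLR297W fell only in the mutant. Many of these calls were marginal. Among the 12 fits that left out 1 array, the call was lost in 9 for SAM2 and YLR297W, 8 for SDT1 and PHM8, 6 for ECO1 and FRE7, 5 for SKP2, 4 for HIS7 and 1 for PCL9. BIO5, ARG8, STB4, LEU2 and AIM33 were called in all 12.

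Branched-chain amino acid synthesis differed in direction of median. Of its 13 genes 9 had a higher change in eco1-W216G and 0 a lower one, with a median change of 0.22 in eco1-W216G and -0.3 in WT. LEU1, isopropylmalate isomerase of leucine synthesis, read 14.13, 13.97 and 14.11 in eco1-W216G at 15 min and 13.02, 13.46 and 12.84 at 0 min, against 13.42, 13.55 and 13.34 in WT at 15 min and 13.52, 13.65 and 13.75 at 0 min. The mutant rose and was above WT at 15 min after starting below it (interaction 1.16 ± 0.21, adjusted p = 0.000122). OAC1, which carries the leucine precursor out of mitochondria, gave 1.61 ± 0.33. Both strains have a mutated LEU2.

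Few or no members of some gene groups were called. Of 10 core histone genes 0 were called in either direction, with interactions between -0.20 and 0.12, and of 37 proteasome genes 1, ECM29, was lower and 0 were higher. Hsp70, Hsp90 and Hsp104 chaperones had 5 higher and 7 lower of 25 (3 higher without eco1-W216G 15 min replicate 3). These are 20% and 28%, against 16.9% and 17.3% of all probe sets. The median change of that list was -0.33 in eco1-W216G and -0.32 in WT, since it holds members that moved either way, and SSA4, the stress-induced Hsp70, was damped at -2.58 ± 0.32.

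Most of the early differences were called again at the later times. At 35 min, 704 of the 817 damped repressions and 709 of the 793 damped inductions had an interaction against 0 min called with the same sign, and at 55 min 583 and 599 did, against 39.5% of all probe sets called in either direction at 35 min and 31.3% at 55 min. These use the same 0 min arrays as the 15 min interaction, so they are not independent of it. The median interaction of the damped repressions was 1.33 at 15 min, 1.32 at 35 min and 1.06 at 55 min. Relative to WT at 0 min, the 60S assembly list stood at -0.41, -2.08, -1.64 and -1.58 in eco1-W216G at 0, 15, 35 and 55 min, and at 0, -4.89, -4.24 and -3.33 in WT. At 55 min the large subunit ribosomal proteins stood at -0.94 in eco1-W216G, against -2.33 in WT, where the median was lower than at 15 min. HXT1 was an exception, with interactions of 2.27 at 15 min, -0.08 at 35 min and -0.21 at 55 min. ICL1 had 1.4 at 35 min and 1.05 at 55 min, and BIO5 2.26 at 35 min and 2.88 at 55 min.

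**Figure D5:**
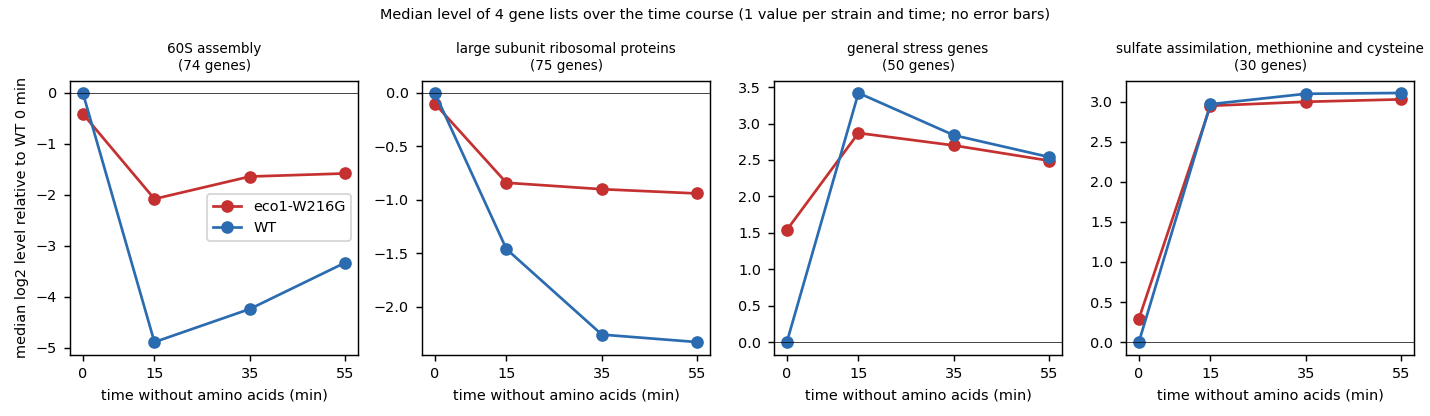
Median log2 level of 4 gene lists at 0, 15, 35 and 55 min relative to WT at 0 min, eco1-W216G in red and WT in blue; each point is the median over the list of means of 3 arrays, with no error bar. The ribosome lists fall less in the mutant from a similar start, the stress list starts 1.54 higher in the mutant and ends near WT, and the sulfate list runs close together in both strains.

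The scc2-D730V strain gives the same comparison for another cohesin-associated mutation, against the same WT arrays. Its interaction at 15 min was called for 0 probe sets (limma; 76 had an unadjusted p under 0.05, against 2572 for eco1-W216G). Those 76 are a smaller share of the probe sets than the 0.05 expected with no difference at all. The test was thus conservative for this strain, and 0 calls do not show equal responses. Without scc2-D730V replicate 1, calls for eco1-W216G rose to 1071 higher and 1153 lower. Whether that replicate lowered the count of 76 was not tested. The median change of the 60S assembly list was -4.38 in scc2-D730V, against -1.74 in eco1-W216G and -4.89 in WT. That of the general stress genes was 3.15 in scc2-D730V, against 1.09 in eco1-W216G and 3.42 in WT. The median interaction of scc2-D730V was 0.37 for the 60S assembly list and -0.22 for the general stress genes.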

How the data were processed

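Biotin-labelled cRNA from total RNA was hybridised to Affymetrix Yeast Genome 2.0 arrays, and per the labels the authors made the deposited values with RMA (background correction, quantile normalization and probe summary; version not given in the sources used here). The deposited table holds these values as intensity on a linear scale, for 5814 probe sets and 36 arrays, and log2 was taken of them here. RMA gives every array nearly one distribution, so a change in total mRNA is not measured, and array number limits precision. The 51 control probe sets were left out, leaving 5763. Gene names came from the platform annotation, updated through gene IDs for 12 probe sets; 265 stay unnamed. The 153 probe sets made for several similar transcripts may share signal.

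One limma model (version 3.58.1, R 4.3.3) with a coefficient for each of the 12 strain and time groups gave all contrasts (24 residual degrees of freedom), with Benjamini-Hochberg adjustment over 5763 probe sets for each contrast. p-values measure the spread between the 3 arrays of a group, pooled over all 12 groups, so arrays outside the comparison also enter it. With only the 12 compared arrays in the fit, 1081 interactions were called higher and 1159 lower. Calls needed adjusted p under 0.05 and a 1.4-fold difference, and responses adjusted p under 0.05 and 2-fold. All printed adjusted p-values come from this fit, and values after ± are its SE unless called SD. The fit was tested on simulated data.

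The comparison, gene lists and named genes were chosen with earlier results of these data known. Genes named are the 10 largest damped repressions and inductions, up to 6 in each smaller class, up to 3 members with the smallest p in each of 53 lists, ECO1, BAR1, GCN4, SNO1 and SNZ1, chosen where array-pair changes did not overlap between strains (except for kept responses); members of lists or of classes named beside them were named after their values were seen. A gene with several probe sets is represented by the brightest. The motif description could not be made, and no sequence is printed. Alternatives were the normalization, arrays in the fit, weights, dim probe sets, thresholds, culture as a block and leaving out arrays.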

Additional observations from a re-analysis of the deposited data

Results flagged for a closer look

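The 15 min change differed between eco1-W216G and WT, by the test of the interaction itself, for 974 probe sets with a higher change in eco1-W216G and for 998 with a lower one. In 2 named genes the strains changed in opposite directions and the difference passed the same test: GIT1, with an interaction of 2.76, and YMC2, with an interaction of 1.70. Groups of 3 arrays are too small to look for single outlying arrays by Dixon's test.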

How the results depend on the processing

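No named gene that was called in the main fit or in the setting compared turned its direction, nor did any list median of at least 1.4-fold. Interactions that were called in neither could change sign, as for MET13 (-0.25 to 0.308) and ARG3 (-0.55 to 0.04). With the fit restricted to the 12 arrays, 4 responses ran in opposite directions. With quantile normalization repeated over the 12 arrays there were 6, and 24 responses were seen only in the mutant. With array weights there were 7 opposite responses, 26 seen only in the mutant and 311 unresolved. Leaving out the dimmest probe sets left 1 enlarged induction and 384 unresolved. A 2-fold limit on the interaction left 565 higher and 544 lower calls, 544 damped repressions, 525 damped inductions, 7 responses only in the mutant and 1109 unresolved. Adjusted p under 0.001 left 417 higher and 378 lower calls, 403 damped repressions, 363 damped inductions, 1 enlarged induction, 2 only in the mutant and 1410 unresolved, with 275 damped inductions higher at 0 min, 380 damped repressions higher at 15 min, and 392 and 359 damped repressions and inductions chosen on scc2-D730V. With WT responses at 1.4-fold there were 7 opposite responses, 1 enlarged repression and 1706 unresolved. At 4-fold there were 462 damped repressions, 405 damped inductions, 0 opposite, 0 enlarged, 48 kept whole, 69 unresolved, 285 damped inductions higher at 0 min, and 415 and 369 when chosen on scc2-D730V. These thresholds change the counts by their construction; for the other settings the cause was not tested.

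Leaving out 1 array at a time gave 809 to 1006 higher and 842 to 1031 lower calls, 700 to 835 damped repressions, 687 to 806 damped inductions, 1 to 4 opposite responses, 2 to 3 enlarged inductions, 0 to 1 enlarged repressions, 76 to 114 kept whole, 6 to 21 only in the mutant and 568 to 786 unresolved. Damped inductions higher at 0 min numbered 330 to 460, damped repressions higher at 15 min 558 to 677, and those chosen on scc2-D730V 658 to 768 and 647 to 763. Same-numbered arrays at 0 and 15 min correlated, in their deviations from the group means, at -0.286 to 0.118 in eco1-W216G and at 0.09 to 0.144 in WT. Arrays of different number correlated at -0.451 to 0.407 in eco1-W216G and at -0.089 to -0.01 in WT. Over all 36 arrays the consensus correlation within a replicate number of a strain was 0.243. The strains thus differed in this, and the main fit did not take the numbers to pair cultures. With the replicate block as a fixed term 5 opposite responses were called, with it as a random term 4, and no other count moved by over 1.5 times. Leaving out scc2-D730V replicate 1, which was chosen after seeing the data, gave 1071 higher and 1153 lower calls for eco1-W216G and 425 unresolved responses.

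Over 230 named genes and 27 settings, 5910 of 6182 interactions stayed called or stayed uncalled, 225 lost the call and 47 gained it. Outside the threshold settings 42 genes did either. Of the list medians, 1422 moved by less than 0.25 on the log2 scale and 9 by at least that. With each array centred on its median, 52.4% of calls were higher, against 49.4%.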
